A study of Mus musculus with 12 samples.

Results

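The genes described here are 8 members of the YAP-TEAD branch of the Hippo pathway: the target genes Ccn1, Ccn2 and Ankrd1, the coactivator Yap1, the transcription factors Tead1 and Tead2, the kinase Lats2 and the TEAD cofactor Vgll1. They were chosen by name, with earlier results of these data known. Older array names were read through gene aliases, so that Cyr61 stands for Ccn1 and Ctgf for Ccn2. All 8 were among the 19174 genes kept for testing, through 14 probes, of which 13 were kept. RNA came from J1, a line of mouse embryonic stem cells, infected with lentivirus carrying a short hairpin RNA against Ino80 (shIno80) or a non-targeting hairpin (shNT). The harvest days were 2, 4 and 6 counted from the infection, or 48, 96 and 144 hours in the sample descriptions. Each of the 6 groups held 2 arrays, and every culture had been infected and moved into M15 medium, which the shNT controls share. The labels give no hairpin sequence, no selection step and no rescue of Ino80, and nothing says that the cultures of a group were independent, so p-values here reflect variation among these particular samples, some of which may be technical.

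YAP is a coactivator without a DNA-binding domain of its own, and it reaches its target genes through the TEAD factors, which bind DNA. The Hippo kinases LATS1 and LATS2 phosphorylate YAP and its paralogue TAZ and hold them out of the nucleus. In the early mouse embryo, YAP and TEAD4 act in the outer cells, where they help switch on Cdx2 and the trophectoderm programme, whereas LATS kinases restrain YAP in the inner cells that give rise to embryonic stem cells.

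The TEAD factors recognise a core of 6 letters, GGAATG, which reads CATTCC on the other strand. The 250 bases before the annotated start, from RefSeq (GRCm38.p6), are shown for the members whose window holds this core, since these members differed widely in response. Capitals mark the core.
Ccn1 promoter, chr3:145649986-145650235, minus strand: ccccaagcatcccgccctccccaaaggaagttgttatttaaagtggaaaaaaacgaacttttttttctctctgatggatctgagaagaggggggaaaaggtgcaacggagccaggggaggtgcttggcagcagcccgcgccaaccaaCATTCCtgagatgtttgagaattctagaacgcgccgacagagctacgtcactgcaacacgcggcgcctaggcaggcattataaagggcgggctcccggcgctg
Ankrd1 promoter, chr19:36119845-36120094, minus strand: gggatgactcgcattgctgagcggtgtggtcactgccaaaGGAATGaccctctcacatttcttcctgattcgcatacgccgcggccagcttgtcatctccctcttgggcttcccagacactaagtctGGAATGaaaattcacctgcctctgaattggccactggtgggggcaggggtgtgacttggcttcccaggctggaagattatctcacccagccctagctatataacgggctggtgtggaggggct
Vgll1 promoter, chrX:57087856-57088105, plus strand: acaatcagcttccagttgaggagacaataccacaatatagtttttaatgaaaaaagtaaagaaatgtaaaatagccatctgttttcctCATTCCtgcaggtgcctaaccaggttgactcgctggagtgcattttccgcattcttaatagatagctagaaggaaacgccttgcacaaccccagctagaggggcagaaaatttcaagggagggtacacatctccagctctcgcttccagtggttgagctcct
Yap1 promoter, chr9:8004597-8004846, minus strand: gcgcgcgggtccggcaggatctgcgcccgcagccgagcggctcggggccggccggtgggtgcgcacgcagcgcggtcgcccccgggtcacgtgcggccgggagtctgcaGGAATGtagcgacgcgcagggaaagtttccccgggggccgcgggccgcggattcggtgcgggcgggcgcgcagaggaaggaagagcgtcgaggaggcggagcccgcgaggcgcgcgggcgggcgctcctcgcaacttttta
The core begins 103 bases before the start in Ccn1, 210 and 123 bases before it in Ankrd1, 162 bases before it in Vgll1 and 141 bases before it in Yap1. It is written as CATTCC in Ccn1 and Vgll1 and as GGAATG in Ankrd1 and Yap1. The single Tead2 window and both Lats2 windows hold 0 cores, and no window for Ccn2 or Tead1 was used here. Of 32851 promoter windows of this length, 12.6% hold the core at least once and 1.02% at least 2 times, on either strand. The CArG box, the motif of the serum response factor SRF, was found in 0 of the members' windows and in 1.47% of all windows.

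Each array was read as log2 of the processed intensity minus the 75th percentile of that array, so a value of 0 is the signal of a fairly bright probe. The 75th percentile lay between 1165 and 1645 intensity units, and the share of probes well above background ran from 61.8% to 69.1%. The 2 deposited records of the series, a value table and the scanner files, tie 6 of the 12 arrays to different samples, by an exchange of slide positions 2 and 3 between shIno80 and shNT on each of 3 slides. Samples are named here as the value table names them, a choice made with the correlations between arrays and the Ino80 signal known. With these names the 2 arrays of each group correlated at 0.991 to 0.994, against 0.948 to 0.987 for the pairs given by the scanner files. The probe of Ino80, the targeted ATPase gene, was lower in shIno80 cells by a log2 change of -1.99, -2.30 and -2.09 at days 2, 4 and 6 (SE 0.165), which is not independent of that choice. Each slide held the 4 arrays of 1 day, so for levels across days, slide and day cannot be told apart.

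Differences between shIno80 and shNT at a day were tested with limma over all 12 arrays, with Benjamini-Hochberg adjustment over all 19174 genes and a threshold of 0.05. A gene said to rise or fall at a day is higher or lower in shIno80 than in shNT cells of that day. Of the 8 members, 4 passed at day 2 (3 higher and 1 lower), 6 at day 4 (5 higher and 1 lower) and 7 at day 6 (6 higher and 1 lower). Of all genes, 12.5% passed at day 2 (6.20% higher, 6.28% lower), 42.3% at day 4 (20.8% higher, 21.5% lower) and 50.5% at day 6 (21.0% higher, 29.5% lower). The members were chosen with earlier results of these data known, so their comparison with all genes is not an independent test. The median log2 fold change of the members was 0.14, 2.48 and 2.95 at days 2, 4 and 6, against 0.01, -0.05 and -0.14 for all genes. With Ankrd1 and Vgll1 set at their lower bounds it was 2.23 at day 4 and 2.95 at day 6. The members' median was smaller after normexp, at 0.07, 0.96 and 1.45 over the days, and in the deposited table, at 0.13, 1.34 and 2.27. The day-2 count rested on single arrays: 1 member passed without shNT replicate 1 of that day and 2 without shIno80 replicate 2. In a fit to the 4 arrays of day 2 alone 0 members passed, and that fit called 6 genes in all. With the samples named as the scanner files are attached, 0 members and 0 genes passed at any day (limma), although 591, 164 and 375 genes had an unadjusted p under 0.05 at days 2, 4 and 6.

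**Figure D1:**
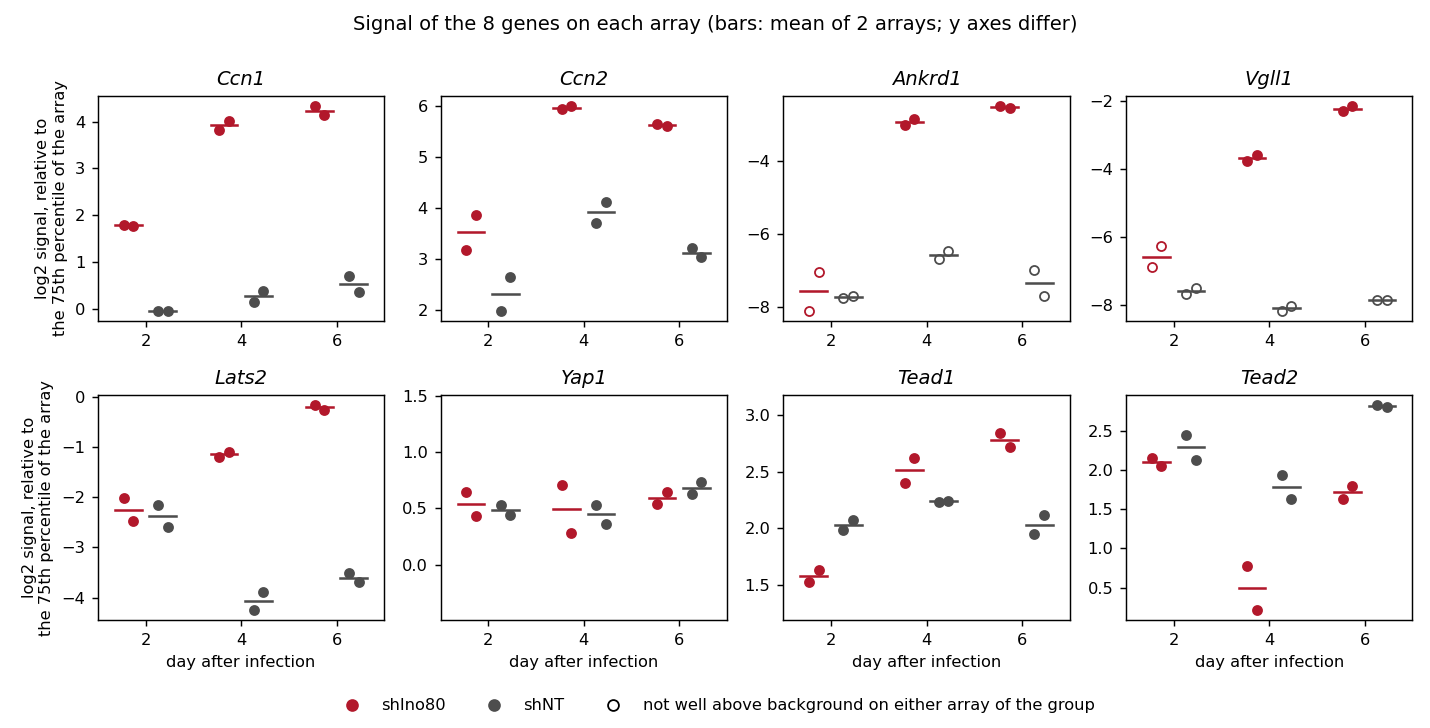
Log2 signal of each of the 8 genes, relative to the 75th percentile of the array, on every array, with shIno80 in red to the left of shNT in grey at days 2, 4 and 6; bars are means of 2 arrays, open points mark groups with neither array well above background, and y axes differ between genes. Ccn1, Ccn2, Ankrd1, Vgll1 and Lats2 lie above shNT on both shIno80 arrays of days 4 and 6, Tead2 lies below, and the Yap1 arrays of both groups interleave.

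The secreted matricellular protein genes Ccn1 and Ccn2, which are textbook YAP-TEAD targets, were higher in shIno80 cells at every day. The Ccn1 signal was 1.80 and 1.78 in shIno80 cells at day 2, against -0.05 and -0.05 in shNT cells. At day 4 it was 3.83 and 4.01 in shIno80 cells, against 0.14 and 0.38 in shNT cells. At day 6 it was 4.34 and 4.14 in shIno80 cells, against 0.70 and 0.35 in shNT cells. The groups did not overlap at any day, and every shIno80 array lay above every shNT array of any day. Ccn1 rose 3.57-fold at day 2, 12.6-fold at day 4 and 13.1-fold at day 6 (log2 1.83, 3.66 and 3.71, SE 0.147). The limma adjusted p was 0.000674, 4.56e-06 and 1.51e-06 for these days. The fit to the day-2 arrays alone left the Ccn1 change unaltered in size with an adjusted p of 0.0846. The Ccn1 probe lies at chr3:145544387-145544446 (mm7, minus strand). For this and every other probe the exon or UTR it lies in was not looked up, because no annotation of that build was used here.

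Ccn2, which encodes connective tissue growth factor, gave a signal of 3.18 and 3.86 in shIno80 cells at day 2, against 1.98 and 2.65 in shNT cells. It was 5.93 and 6.00 in shIno80 cells at day 4, against 3.71 and 4.12 in shNT cells. By day 6 its values were 5.65 and 5.61 in shIno80 cells, against 3.21 and 3.04 in shNT cells. Both shIno80 arrays were above both shNT arrays at each day, but at day 2 the arrays within a group differed by more than those of any later group. Replicate 2 was the higher array in both groups at day 2, and the main fit did not pair arrays by replicate number. Ccn2 rose 2.31-fold at day 2, 4.13-fold at day 4 and 5.69-fold at day 6 (log2 1.21, 2.05 and 2.51, SE 0.272; limma adjusted p 0.0258, 0.000516 and 0.000136). The day-2 call was lost without shNT replicate 1 (log2 0.88, adjusted p 0.103), without shIno80 replicate 2 (0.87, 0.122), with no filter on dim probes (adjusted p 0.0555) and on the day-2 arrays alone (0.207). Across groups Ccn2 was highest in shIno80 at day 4, then shIno80 at day 6, and the shNT day-4 arrays overlapped those of shIno80 at day 2. Its probe lies at chr10:24349402-24349461 (mm7, plus strand).

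Ankrd1, which encodes an ankyrin repeat protein of muscle and is a further YAP-TEAD target, was detected in the knockdown cells at days 4 and 6 and in no other group. Its values were -8.10 and -7.03 in shIno80 cells at day 2, against -7.74 and -7.69 in shNT cells. None of these 4 arrays was well above background, and the groups overlapped. At day 4 it was -3.02 and -2.87 in shIno80 cells, against -6.68 and -6.47 in shNT cells. The day-6 values were -2.50 and -2.56 in shIno80 cells, against -6.97 and -7.70 in shNT cells. All 4 shIno80 arrays of these days were well above background and no shNT array was. Ankrd1 was therefore at least 8.84-fold higher at day 4 (limma adjusted p 7.98e-05) and at least 10.5-fold higher at day 6 (1.47e-05). An "at least" value sets the mean of shIno80 against the higher of the shNT signal and the lowest signal of any probe well above background on the array. Where a probe was counted as above background if any of its spots was, these bounds were 12.4-fold and 17.2-fold. The fitted log2 changes were 3.63 and 4.80 (SE 0.336), but 1.50 and 2.10 from the deposited value table and 1.10 and 1.27 after normexp, which treat background differently. The probe lies at chr19:35813004-35813063 (mm7, minus strand).

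Vgll1 encodes a vestigial-like cofactor that binds TEAD proteins at the surface that YAP uses. At day 2 its values were -6.87 and -6.26 in shIno80 cells, against -7.66 and -7.49 in shNT cells. The groups did not overlap and the difference passed the test (log2 1.01, SE 0.190, limma adjusted p 0.0139), yet no day-2 array was well above background, so no fold is given. It was 0.08 after normexp and 0.13 in the deposited table (adjusted p 0.653 and 0.491), and the call was also lost without shNT replicate 1 (0.92, adjusted p 0.0587) and on the day-2 arrays alone (0.182). At day 4 Vgll1 was at -3.77 and -3.58 in shIno80 cells, against -8.17 and -8.02 in shNT cells. Its day-6 values were -2.30 and -2.13 in shIno80 cells, against -7.84 and -7.84 in shNT cells. As for Ankrd1, the 4 shIno80 arrays of days 4 and 6 were well above background and no shNT array was. Vgll1 was at least 5.32-fold higher at day 4 (adjusted p 4.61e-06) and at least 13.0-fold higher at day 6 (1.01e-06). With the looser background rule these bounds were 11.4-fold and 21.4-fold. The fitted log2 changes of 4.42 and 5.62 became 1.18 and 2.45 in the deposited table and 0.82 and 1.63 after normexp, each past the threshold. The probe lies at chrX:52582563-52582622 (mm7, plus strand).

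Lats2, the kinase that phosphorylates YAP and is itself known as a YAP-TEAD target, did not pass at day 2 and rose strongly afterwards. Its signal was -2.02 and -2.48 in shIno80 cells at day 2, against -2.15 and -2.60 in shNT cells, with interleaved arrays (log2 0.12, interval -0.35 to 0.60). At day 4 it was -1.19 and -1.10 in shIno80 cells, against -4.25 and -3.88 in shNT cells. At day 6 it was -0.16 and -0.25 in shIno80 cells, against -3.50 and -3.70 in shNT cells. The groups separated in both directions: each later shIno80 array lay above all 4 day-2 arrays, and each later shNT array lay below them. Lats2 rose 7.57-fold at day 4 and 10.5-fold at day 6 (log2 2.92 and 3.39, SE 0.208; limma adjusted p 2.41e-05 and 8.37e-06). After normexp these changes were 1.65 and 2.24, both past the threshold.

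All 4 Lats2 probes were higher in shIno80 at days 4 and 6 in a fit to all 28642 kept probes. Their log2 changes ran over 1.92 to 2.92 at day 4 and 2.38 to 3.43 at day 6, and each passed. At day 2 none of the 4 passed. The probe at chr14:52590323-52590382 (mm7, minus strand) read -0.67 at day 2 (SE 0.218, limma adjusted p 0.0882), whereas the other probes read 0.07 to 0.38. Those other probes lie between chr14:52557891 and chr14:52559116 on the same strand.

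**Figure D2:**
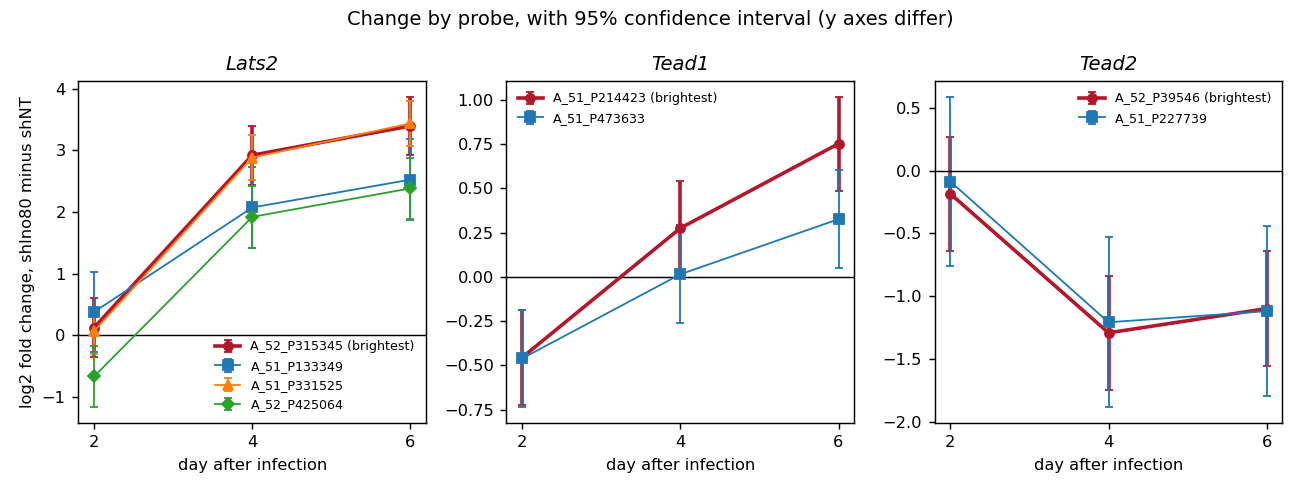
Log2 fold change (shIno80 minus shNT) at days 2, 4 and 6 for each kept probe of Lats2, Tead1 and Tead2, with 95% confidence intervals from limma over all kept probes; red marks the brightest probe, which stands for the gene elsewhere, and y axes differ. The 4 Lats2 probes range over 2.38 to 3.43 at day 6, the Tead1 probes start together near -0.46 at day 2 and part at day 6, and both Tead2 probes are near -1.1 at day 6.

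Yap1, the coactivator gene itself, did not pass at any day. Its signal was 0.64 and 0.43 in shIno80 cells at day 2, against 0.53 and 0.44 in shNT cells. It was 0.70 and 0.28 in shIno80 cells at day 4, against 0.53 and 0.36 in shNT cells. It was 0.54 and 0.64 in shIno80 cells at day 6, against 0.62 and 0.73 in shNT cells. The arrays of both groups overlapped at each day, and neighbours in the order of the 6 group means all overlapped. The log2 difference was 0.06 at day 2 (95% interval -0.30 to 0.41), 0.05 at day 4 (-0.31 to 0.40) and -0.09 at day 6 (-0.44 to 0.27), with limma adjusted p of 0.882, 0.840 and 0.679. These arrays measure RNA and carry no reading of YAP protein, its phosphorylation or its place in the cell. The Yap1 probe lies at chr9:7956436-7956495 (mm7, minus strand).

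The DNA-binding factors Tead1 and Tead2 differed in direction at day 6, Tead1 being higher and Tead2 lower in shIno80 cells. Tead1 was read by a probe named in the files by an older RIKEN symbol that is an alias of Tead1, at chr7:108822351-108822410 (mm7, plus strand). Its signal was 1.52 and 1.63 in shIno80 cells at day 2, against 1.99 and 2.07 in shNT cells. It was 2.40 and 2.63 in shIno80 cells at day 4, against 2.24 and 2.24 in shNT cells. The day-6 signal was 2.85 and 2.72 in shIno80 cells, against 1.95 and 2.12 in shNT cells. The shIno80 arrays thus lay below shNT at day 2 and above it at days 4 and 6, with no overlap. The log2 change was -0.45 at day 2, 0.28 at day 4 and 0.75 at day 6 (SE 0.115), and the limma adjusted p was 0.0386, 0.0890 and 0.000844. The day-4 difference passed with quantile normalization (0.37, adjusted p 0.0166), normexp (0.41, 0.00386) and the deposited table (0.36, 0.0373).

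The lower day-2 value of Tead1 was a narrow call. It was lost with median scaling (adjusted p 0.0715), the deposited table (0.0687), no filter on dim probes (0.0848) and the day-2 arrays alone (0.263). Leaving out any day-2 array ended it (shNT replicate 1 with 0.0723, shNT replicate 2 with 0.114, shIno80 replicate 1 with 0.157 and shIno80 replicate 2 with 0.0913). So did leaving out either shNT array of day 4 (0.0659), either shNT array of day 6 (0.0521) or either shIno80 array of day 6 (0.0599). A second RIKEN-named probe, 4757 bases from the probe that carries the name Tead1 where the reported one is 6844 bases from it, read -0.46, 0.01 and 0.33 at days 2, 4 and 6 (limma adjusted p 0.0441, 0.937 and 0.0515). The probe named Tead1 itself was well above background on 1 of 12 arrays and was not kept.

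Tead2, the TEAD gene known for high activity in early embryos and embryonic stem cells, fell at days 4 and 6. Its signal was 2.16 and 2.05 in shIno80 cells at day 2, against 2.44 and 2.13 in shNT cells, with overlap. It was 0.77 and 0.21 in shIno80 cells at day 4, against 1.93 and 1.63 in shNT cells. At day 6 it was 1.63 and 1.80 in shIno80 cells, against 2.83 and 2.80 in shNT cells. At both later days the shIno80 arrays lay wholly below the shNT arrays, and the lowest group of all was shIno80 at day 4. The log2 change was -0.19 at day 2 (adjusted p 0.640), -1.29 at day 4 (0.00108) and -1.10 at day 6 (0.00205; SE 0.198, limma), or 2.45-fold and 2.14-fold lower at days 4 and 6. A second Tead2 probe read -0.09, -1.21 and -1.12 at these days and passed at days 4 and 6 (adjusted p 0.0110 and 0.0131). The probes lie at chr7:41409172-41409231 and chr7:41407970-41408029 (mm7, plus strand).

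**Figure D3:**
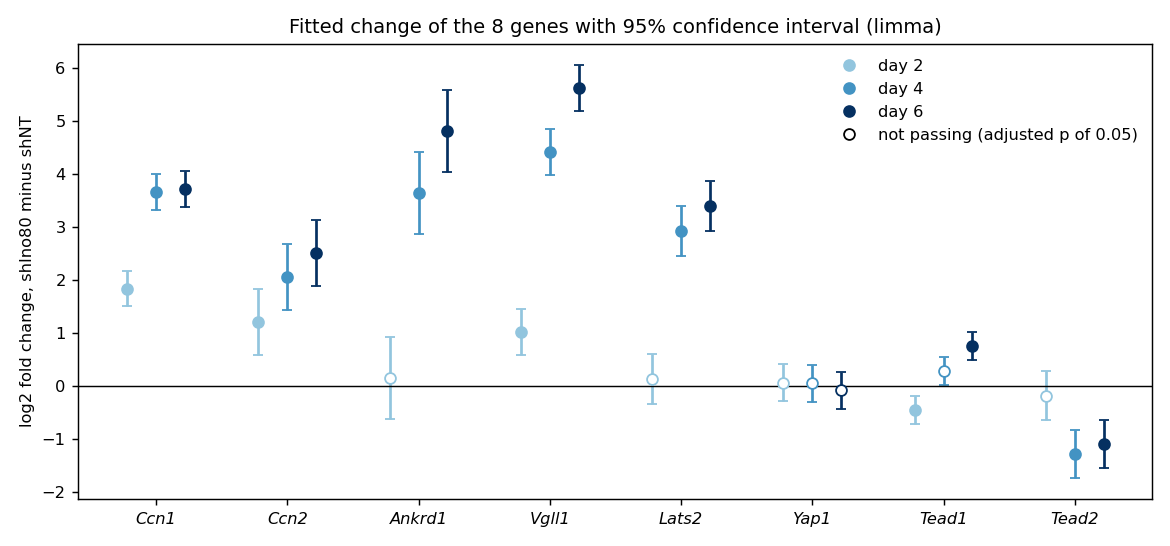
Fitted log2 fold change (shIno80 minus shNT) of the 8 genes at days 2, 4 and 6, in light to dark blue, with 95% confidence intervals from limma; open points did not pass an adjusted p of 0.05. At day 6 the fitted changes run from 5.62 for Vgll1 to -1.10 for Tead2, and Yap1 lies at -0.09.

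Whether a member's difference changed between days was tested within the same model. Between days 2 and 4, 6 of the 8 members passed, against 15.3% of all genes (8.14% up, 7.18% down). The difference grew by 1.82 on the log2 scale for Ccn1 (SE 0.208, limma adjusted p 0.00143), by 2.80 for Lats2 (0.293, 0.00103) and by 0.73 for Tead1 (0.163, 0.0212), whose shIno80 arrays lay below shNT at day 2 and above it at day 4. It moved by -1.11 for Tead2 (0.281, 0.0337). For Ankrd1 and Vgll1 it grew by 3.49 and 3.41 (adjusted p 0.00284 and 0.000378), with day-2 values under background. The change of Ccn2 was 0.84 and did not pass (interval -0.05 to 1.72), and that of Yap1 was -0.01 (-0.51 to 0.49). Between days 4 and 6, 0 members passed, against 3.72% of all genes (1.55% up, 2.17% down by limma; 3 members and 3396 genes had an unadjusted p under 0.05). Vgll1 came nearest, with 1.21 (adjusted p 0.0509), and it passed with quantile normalization (1.44, adjusted p 0.00948), median scaling (1.26, 0.0441), normexp (0.81, 0.00489) and the deposited table (1.27, 0.00028), and without either shIno80 array of day 2 (0.0197).

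The Tead1 and Tead2 changes between days 2 and 4 were the least stable. That of Tead1 missed the threshold without shIno80 replicate 1 of day 2 (0.0685), shNT replicate 1 or 2 of day 4 (0.0698 and 0.0638) or shIno80 replicate 2 of day 4 (0.0815), and with median scaling (0.0874). That of Tead2 missed it without shNT replicate 2 of day 2 (0.0837), shIno80 replicate 1 or 2 of day 2 (0.0966 and 0.0643), shNT replicate 1 or 2 of day 4 (0.116 and 0.0508) or shIno80 replicate 2 of day 4 (0.0921). It also missed it without either shNT array (0.0512) or either shIno80 array (0.0523) of day 6, with no filter on dim probes (0.0687) and with the mean of its probes (0.0585).

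The remaining factors of the branch were read from lists chosen with earlier results of these data known. All 6 listed genes, the coactivator TAZ (Wwtr1), Tead3, Tead4 and the cofactors Vgll2, Vgll3 and Vgll4, were kept. At day 2, 0 passed by limma and 2 had an unadjusted p under 0.05, and all 6 were higher at days 4 and 6. Of all genes, 20.8% and 21.0% passed as higher at days 4 and 6. The median log2 change at those days was 1.56 and 2.01, or 1.56 and 1.86 with Vgll2 at its lower bound. It was 0.66 and 1.07 after normexp, with 5 genes higher at day 4, and 0.82 and 1.43 in the deposited table, also with 5 higher at day 4. Tead4, the TEAD factor needed for trophectoderm formation in the mouse, had 0.68 and 0.66 in shIno80 cells at day 6, against -1.47 and -1.25 in shNT cells. It was 3.23-fold higher than in shNT cells at day 4 and 4.09-fold at day 6 (limma adjusted p 2.57e-05 and 7.89e-06). At day 4 Tead4 had -0.55 and -0.35 in shIno80 cells, against -2.18 and -2.11 in shNT cells. The day-2 signals were -1.31 and -1.17 in shIno80 cells and -0.89 and -0.73 in shNT cells. The day-4 difference thus joined a higher shIno80 signal with a lower shNT signal than at day 2, on different slides. Wwtr1 rose 1.67-fold and 2.80-fold at these days, and Tead3 rose 2.71-fold and 3.29-fold. Vgll3 had 3.41 and 3.27 in shIno80 cells at day 6, against -1.14 and -1.32 in shNT cells, a 23.8-fold rise (adjusted p 4.33e-06). Vgll4, known as a competitor of YAP for TEAD, rose 4.14-fold at day 4 and 3.98-fold at day 6, when 1 of 2 shNT arrays was above background. Vgll2 was above background on no shIno80 array at day 2, on 1 of 2 at day 4 and on both at day 6, and on no shNT array. It was at least 1.51-fold higher at day 4 and at least 1.63-fold higher at day 6.

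Among the kinases and upstream regulators, the changes went both ways. Of 22 kept genes, 2 were higher and 3 lower at day 2, 8 higher and 4 lower at day 4, and 10 higher and 3 lower at day 6. The shares of all genes were 6.20% higher and 6.28% lower at day 2, 20.8% and 21.5% at day 4, and 21.0% and 29.5% at day 6. In either direction, 22.7%, 54.5% and 59.1% of the list passed at these days, against 12.5%, 42.3% and 50.5% of all genes. Median scaling gave 0 higher and 4 lower at day 2 and 6 higher and 6 lower at day 4. The junctional scaffold genes Amot and Amotl1, which bind YAP, rose 5.49-fold and 4.18-fold at day 6 (limma adjusted p 1.66e-05 and 0.000407), while Amot did not pass at day 4 (log2 0.21, adjusted p 0.387). The upstream regulators Frmd6 and Wwc2 rose 3.23-fold and 2.95-fold at day 6. Lats1, the paralogue of Lats2, did not pass at any day. Its signal at day 6 was -0.98 and -1.07 in shIno80 cells, against -1.33 and -1.22 in shNT cells (log2 0.25, adjusted p 0.153). The list median was -0.04, 0.29 and 0.34 at days 2, 4 and 6; at day 2 it turned to 0.02 in the deposited table, and at day 4 it was 0.15 with median scaling.

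Other known YAP-TEAD targets were mostly higher. Of 21 kept genes, 7 were higher and 2 lower at day 2, 16 higher and 1 lower at day 4, and 16 higher and 0 lower at day 6, when 5 did not pass. Of all genes, 6.20%, 20.8% and 21.0% passed as higher at these days, and 6.28%, 21.5% and 29.5% as lower. The list median was 0.30, 0.97 and 1.81, and at day 2 it was 0.06 after normexp and 0.13 in the deposited table. Thbs1, which encodes the matrix glycoprotein thrombospondin 1, was 3.24-fold higher at day 2 on its brightest probe (limma adjusted p 0.00261) and 25.8-fold and 23.9-fold higher at days 4 and 6. A second Thbs1 probe read a log2 change of 0.49 at day 2 and did not pass (limma adjusted p 0.235), and the remaining one was above background on no day-2 array. Both of these probes passed as higher at days 4 and 6. The growth factor gene Tgfb2 had -1.51 and -1.93 in shIno80 cells at day 6, against -5.60 and -6.54 in shNT cells, a 20.4-fold rise (adjusted p 0.000229). Ccdc80 also rose 20.4-fold at day 6. For both genes 1 of 2 shNT arrays of that day was above background, so the size of the fold rests in part on signal at background. The forkhead gene Foxf2 was above background on no shNT array and was at least 6.21-fold higher at day 6.

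**Figure D4:**
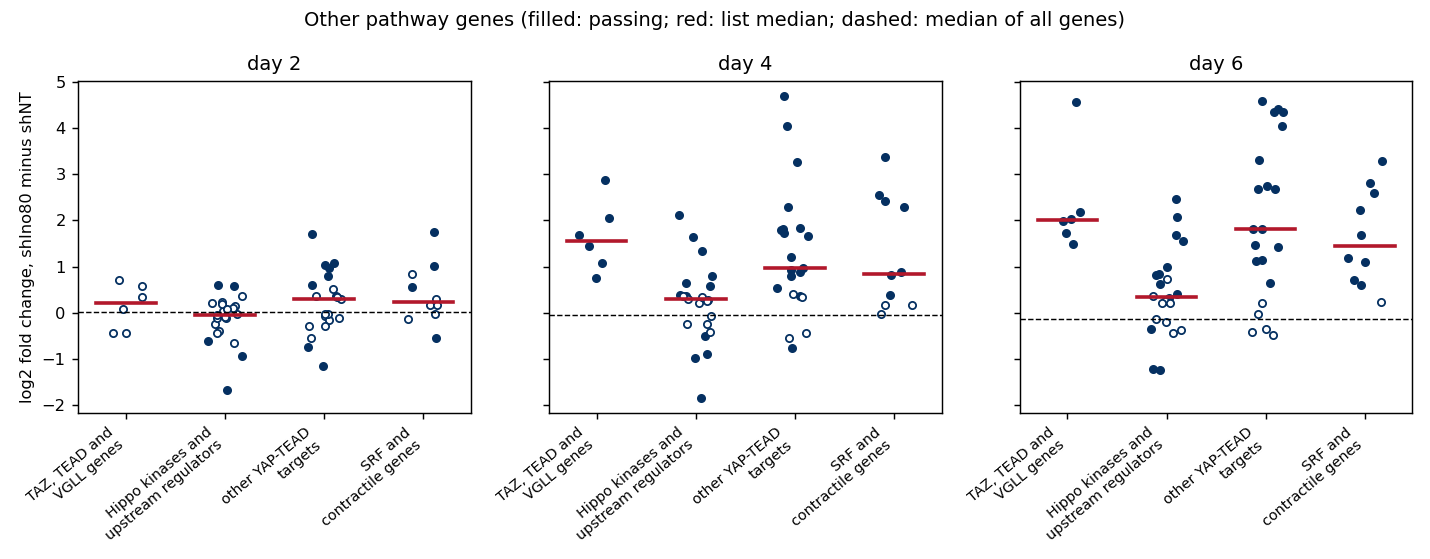
Log2 fold change (shIno80 minus shNT) of every kept gene of 4 pathway lists at days 2, 4 and 6; filled points passed an adjusted p of 0.05 (limma), red bars are list medians and the dashed line is the median of all 19174 genes. The targets' median moves over 0.30, 0.97 and 1.81 across the days, while the kinases and regulators stay at -0.04, 0.29 and 0.34 with genes on both sides of 0.

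Genes of the SRF and contractile programme, which shares targets with YAP-TEAD, were mostly higher at days 4 and 6. Of 10 kept genes, 3 were higher and 1 lower at day 2, 7 higher and 0 lower at day 4, and 9 higher and 0 lower at day 6. Among all genes, 6.20%, 20.8% and 21.0% passed as higher at these days, and 6.28%, 21.5% and 29.5% as lower. The list median was 0.23, 0.85 and 1.44. Srf itself did not pass at any day (log2 -0.03, 0.16 and 0.23). Tagln, an actin-binding protein of smooth muscle, had 6.24 and 6.30 in shIno80 cells at day 6, against 3.28 and 2.72 in shNT cells (9.67-fold, limma adjusted p 1.68e-05). At the same day Tpm1 rose 7.03-fold, Cnn1 6.04-fold and Myl9 4.65-fold.

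Markers of other cell types moved over the same days. Of 10 listed trophectoderm markers, all but Elf5 were kept, and these 9 were all higher at day 6. Their summed signal, in multiples of each array's 75th percentile, was 507 to 530 in shIno80 cells at day 6, against 16.8 to 21.6 in shNT cells. Krt18 and Krt8 were the brightest (log2 8.15 and 7.56 in shIno80 cells at day 6), so the sum mainly follows these keratin genes. Cdx2, the trophectoderm factor that YAP and TEAD4 help to switch on in the embryo, had 0.36 and 0.25 in shIno80 cells at day 6, against -3.30 and -3.46 in shNT cells (12.9-fold, limma adjusted p 0.000469). At day 2 it did not pass (log2 -0.38, adjusted p 0.722). Of 10 listed embryonic stem cell markers, all but Fgf4 were kept, and these 9 were all lower at days 4 and 6. Their sum was 260 to 268 in shIno80 cells at day 6, against 660 to 723 in shNT cells. It mainly follows Dppa5a and Zfp42 (log2 8.51 and 7.07 in shNT cells at day 6), which were 2.02-fold and 3.59-fold lower. The largest fall among the 9 at day 6 was that of Nanog, 6.57-fold. Of 10 listed fibroblast markers, all but Postn were kept. For these 9 the sum was 5.53 to 6.17 in shIno80 cells at day 6, against 1.51 to 1.75 in shNT cells. This sum mainly follows S100a4 and Col1a1 in shIno80 cells (log2 1.30 and 0.64 at day 6) and Thy1 in shNT cells (-0.21). Of these markers, 6 were higher and 1 (Thy1) lower at day 6, and Lum was above background on no shNT array of that day. At day 4, 20.8% of all genes passed as higher and 21.5% as lower, and at day 6, 21.0% and 29.5%. In these bulk samples, fewer cells of a type and less RNA per cell cannot be told apart, and the part of any cell type in the members' changes was not tested.

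Among 14941 kept genes with a name other than a clone or locus number, the 2 whose signal correlated best with each member over the 12 arrays are given as a description, since the arrays share groups and slides. For Ccn1 they were Gyg and Crim1 (Pearson r 0.994 and 0.993), and Crim1 is itself on the list of targets. For Ccn2 they were Sh3yl1 and Actr1a (0.992 and 0.990). For Lats2 they were Ociad2 and the pathway regulator Frmd6 (0.992 and 0.989). Vgll1 was followed by Chst14 and by Rock2, a kinase of the actin cytoskeleton (0.994 and 0.993), and Ankrd1 by Tmed3 and Vcan (0.991 and 0.990). The Vgll1 and Ankrd1 probes were each well above background on only 4 of the 12 arrays, so their r mainly reflects detection on those arrays. Tead1 was followed by Hipk3 and Id3 (0.985 and 0.979) and Tead2 by Cux1 and Pex16 (0.987 and 0.983). For Yap1, which varied little, the best were Elf2 and Psmb7, at 0.883 and 0.835. Pearson r compares the shape of a profile and not its size. At day 6, for example, the log2 change was 0.60 for Actr1a and 2.51 for Ccn2, but 1.68 for Hipk3 and 0.75 for Tead1.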

How the data were processed

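Total RNA of J1 cells was measured on 12 single-colour arrays. The deposited scanner files give 1 processed intensity a spot (Agilent Feature Extraction 9.5.3.1), corrected for background and spatial trend, per the file headers. The deposited log2 value table was matched to them: every column equalled the unsubtracted mean intensity of a single scanner file after scaling (tolerance 1e-06), with medians of 7.22 to 7.47 and a scaling rule that the sources leave unstated. This match showed the exchange of 6 arrays. Log2 processed intensity was set relative to the array's 75th percentile. Spots with non-uniformity or population outlier marks were dropped (125 of 41174 probes lost), and the rest averaged per probe.

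A probe was kept if, in 1 group or more, all its used spots were well above background on both arrays (28642 probes). This replaced a looser rule (any spot) after bounds from that rule had been seen, and the looser rule was run as an alternative. A gene was its brightest kept probe. Names came from RefSeq genes of GRCm38.p6 by accession for 22944 probes, by symbol for 6664 and by older symbol for 3108, and 8458 kept the file's name. limma 3.58.1 in R 4.3.3 (lmFit, eBayes, 6 residual and 2.19 prior degrees of freedom) fitted 1 mean per group. It was tested on simulated data. The number of arrays limits the precision.

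Genes named are the 8 members, Ino80, up to 4 genes with the largest passing day-6 change in each list, Tead3, Tead4, Wwtr1, Lats1 and Cdx2, and the 2 genes most correlated with each member among 14941 kept genes with a gene name. The 6 regulators and the targets Nt5e and Gadd45a under other observations were chosen after their values were seen. The members and lists were chosen with earlier results of these data known. Alternatives covered scaling, normexp (offset 50), the deposited table, probe filters and choice, left-out arrays, a replicate block, single days and the file attachment.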

Additional observations from a re-analysis of the deposited data

Results flagged for a closer look

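The change of the shIno80 minus shNT difference between days 2 and 4 passed limma's test of that difference for 6 members. It was 1.82 for Ccn1, 2.80 for Lats2, 0.73 for Tead1 and -1.11 for Tead2 on the log2 scale. For Ankrd1 it was 3.49 and for Vgll1 3.41, and in both genes no day-2 array was well above background, so these are fitted values and not folds. The Tead1 difference was -0.45 at day 2, 0.28 at day 4 and 0.75 at day 6. Its second probe gave -0.46, 0.01 and 0.33.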

How the results depend on the processing

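Over the members' changes, 934 values were computed under other settings: 822 kept their direction and side of the threshold, 35 changed sign without passing in either setting, 54 lost the call, 14 gained it and 9 reversed with a call in at least 1 setting. All 9 reversals came with scanner files as attached: Ankrd1 -0.38 (day 2 to day 4) and -0.39 (day 6), Ccn1 -0.00824 (day 2) and -0.27 (day 6), Ccn2 -0.11, Lats2 -0.14 and Tead2 0.070 (day 6), Tead1 0.10 (day 2) and Vgll1 -0.22 (day 2 to day 4). With that attachment 0 members and 0 genes passed in any comparison (limma), with 112 and 286 genes at an unadjusted p under 0.05 for days 2 to 4 and 4 to 6. Members passing at day 2 numbered 2 in the deposited table, 2 with no filter and 0 on that day's arrays alone. Leaving out 1 array gave 1 to 4 members at day 2 and 0 to 1 for days 4 to 6. For days 4 to 6, members passing numbered 1 with quantile normalization, 1 with median scaling, 2 with normexp, 2 in the deposited table and 1 with the replicate block.

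Of all genes, day 2 called 2393, against 1359 with no filter, 3817 with the replicate block, 6 on its arrays alone and 1085 to 2004 without 1 array. Days 2 to 4 called 2937, against 1849 with no filter and 1461 to 2810 without 1 array. Days 4 to 6 called 713, against 1505 with normexp, 1081 in the deposited table, 265 with no filter, 1300 with the replicate block and 190 to 861 without 1 array. Median scaling put 40.4% and 39.1% of day-2 and day-4 calls higher (49.7% and 49.2% otherwise) and moved the median of all genes to -0.20 at day 4. The deposited table put 62.0% of day-6 calls higher (41.7% otherwise) and moved that median to 0.06 at day 6. The deposited table and median scaling put 77.0% and 53.0% of day 4 to 6 calls higher (41.7% otherwise). No called member turned sign under either. Samples with the same number deviated together with r of 0.295, 0.117 and 0.083 at days 2, 4 and 6. The main fit did not pair samples by number. With the replicate block, 3817, 9636 and 11093 genes passed at these days, against 2393, 8103 and 9689 in the main fit. Whether the numbers pair the samples was not tested further. The replicate block added calls of Ccn2 (days 2 to 4, limma adjusted p 0.0223) and Vgll1 (days 4 to 6, 0.0334) and changed no other call of a member. The any-spot background rule, chosen after seeing the data, changed no call of a member. The causes of these shifts were not tested.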

Other observations

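The following genes were named after their values had been seen. Of 22 kept kinases and upstream regulators, 3 passed as lower at day 2, 4 at day 4 and 3 at day 6 (limma). These were 6 genes in all, with log2 changes given here in the order of days 2, 4 and 6. Stk4, which encodes the Hippo kinase MST1, read -1.68, -1.84 and -1.21 and passed at each day. Ajuba read -0.94, -0.50 and -0.20 and passed at days 2 and 4. Nf2, the gene of the upstream activator merlin, read -0.39, -0.98 and -1.24 and passed at days 4 and 6. Sav1 passed at day 2 (-0.62), Taok2 at day 4 (-0.89) and Dchs1 at day 6 (-0.35). Of all genes, 6.28%, 21.5% and 29.5% passed as lower at days 2, 4 and 6, beside 3, 4 and 3 of these 22 regulators. Among the targets, Nt5e was lower at day 2 (-1.14) and passed as higher at days 4 and 6, and Gadd45a was lower at days 2 and 4 (-0.73 and -0.75).

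The 60-base Vgll1 probe contains the stretch TGTCTTTCCCGACAGGCATCT in 2 copies (chromosome X). The longest stretch found in 2 copies in any other member's probe was 9 bases, in the second RIKEN-named Tead1 probe.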
